A study of Rattus norvegicus with 8 samples.

Results

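The genes described here are the hypothalamic hormones that control the anterior pituitary, with the binding protein and receptors of corticotropin-releasing hormone. They are Crh, Crhbp, Crhr1, Crhr2, Trh, Sst, Ghrh and Gnrh1, and were chosen by symbol. All 8 had rows in the files, with 11 of the 98356 polyadenylation sites and 8 of the 18003 gene symbols. The study read the 3′ ends of polyadenylated RNA by WTTS-Seq (whole transcriptome termini site sequencing) in the hypothalamus of adult male Long-Evans rats. The 4 cannabis rats inhaled vaporized cannabis plant matter, which held THC and CBD, for 10 min, and the 4 air control rats sat in the same apparatus with an unfilled vaporizer. Both groups were free feeding, had been habituated to the chambers, and had tissue taken 1 hr after exposure, with food removed over that time. The series text names the dissected part as the mediobasal hypothalamus, the sample labels as hypothalamus. By the labels the air controls are replicates 1, 2, 3 and 4 and the cannabis rats are replicates 1, 2, 3 and 5. A value is a normalized count, the reads on a site divided by a size factor of its library, and a gene total is the sum over the sites of a gene. The question was whether a brief cannabis exposure changed the level of these transcripts or the site at which they ended.

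Releasing hormones are peptides made by small groups of hypothalamic neurons, which secrete them at the median eminence into portal blood, from where they reach the endocrine cells of the anterior pituitary. Crh drives corticotropin and so the adrenal stress response, Trh drives thyrotropin and prolactin, Ghrh and Sst act against each other on growth hormone, and Gnrh1 drives the gonadotropins. Several of these neurons lie in the paraventricular and periventricular nuclei, those of Ghrh in the arcuate nucleus, and those of Gnrh1 are few and scattered through the preoptic area.

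The libraries held from 1159811 to 3706778 reads on sites, and 1 read was worth from 0.664 to 1.99 normalized counts. Tissue from 1 dissection contains many cell types, so fewer cells of a type and less RNA per cell cannot be told apart. Among the marker lists, 4 of 4 paraventricular and supraoptic genes (Avp, Oxt, Sim1, Otp) had reads, and their summed level was from 1664 to 4085 normalized counts in air controls and from 5122 to 7541 in cannabis rats, without overlap. Nearly all of this sum was Avp and Oxt, the oxytocin gene. Oxt was at 596 ± 244 in air controls and 1193 ± 343 in cannabis rats (SD, n = 4). Its groups overlapped, at 371 to 889 in air controls and 871 to 1674 in cannabis rats. The transcription factor genes Sim1 and Otp had log2 fold changes of -0.21 and 0.43, also with overlapping groups. All 4 midbrain dopamine markers (Slc6a3, Th, En1, Foxa1) had reads, with sums of 543 to 741 in air controls and 101 to 241 in cannabis rats, in which Slc6a3, Th and En1 were lower and Foxa1, at 3.18 ± 2.05 and 5.87 ± 2.98 (SD, n = 4), overlapped between the groups. The arcuate list, with 5 of 6 genes, ran from 1252 to 1647 in air controls and from 1185 to 2056 in cannabis rats. Most of this sum was 1 gene, Cartpt, at 1096 ± 161 in air controls and 1441 ± 368 in cannabis rats (SD, n = 4). The pituitary list, with 4 of 6 genes, ran from 126 to 821 and from 199 to 703 normalized counts, most of it Cga. Sums of the thalamus (4 of 4 genes), striatum (3 of 4), cortex and hippocampus (2 of 4) and choroid plexus (3 of 4) lists also overlapped between the groups, at 272 to 406 against 291 to 454, 41.7 to 139 against 63.3 to 203, 12.0 to 47.7 against 22.6 to 48.4, and 0 to 22.7 against 9.93 to 36.5. The part of these markers in the results was not tested.

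The 8 genes were expressed at very unlike levels. WTTS-Seq reads each transcript at its 3′ end, so a normalized count is per transcript end and needs no division by length. Trh stood far above the others, at a mean of 615 normalized counts over the 8 libraries, rank 460 of 18003 gene totals. Sst followed with 46.2, Crhbp with 22.6 and Crhr1 with 17.6. Gnrh1 (5.72), Crh (4.72), Crhr2 (4.46) and Ghrh (2.36) were all near the limit of what these libraries could measure, and the mean of Ghrh ranked 16777 of 18003. The range of Trh lay above that of Sst, and the range of Crhr1 above that of Gnrh1, with no overlap between libraries of either pair. The remaining neighbours in this order overlapped. Sst was above Crhbp in 7 of 8 libraries, Crhbp above Crhr1 in 5, Gnrh1 above Crh in 5, Crh above Crhr2 in 4 and Crhr2 above Ghrh in 6.

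**Figure D1:**
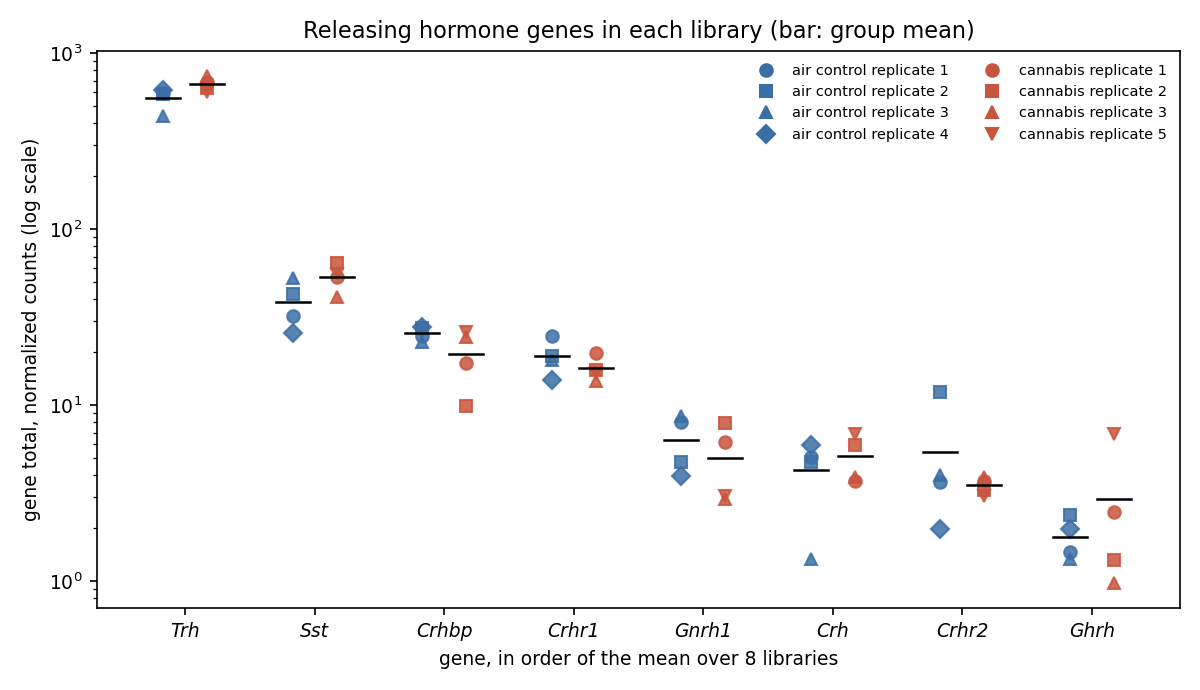
Gene totals of the 8 genes in normalized counts (log axis) in each library, with the air control libraries on the left and the cannabis libraries on the right of each gene and a bar at each group mean. Trh lies between 443 and 743 in every library, the next gene, Sst, between 25.8 and 64.4, and the groups overlap at all 8 genes.

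Of these genes 5 of 8 had 1 site and 3 (Crh, Crhbp, Trh) had 2. Over all gene symbols 39.0% had 1 site, 19.9% had 2 and 41.1% had 3 or more. A site needed at least 16 reads, which limits the number of sites at genes with few reads, such as Ghrh with 21. Within groups all 8 genes had an SD on the log2 scale below the median of gene totals within 1.5-fold of their level, at percentiles from 4.63 (Crhr1) to 32.6 (Sst).

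No gene of the 8 passed the test between cannabis rats and air controls. In a limma fit of log2(normalized count + 1) across all 18003 gene totals, 0 of 8 had P under 0.01, where the share over all gene totals was 0.278%. The count at P under 0.05 was also 0, beside 2.41% of all gene totals, and edgeR and DESeq2 on the recovered reads gave 0 at both thresholds. The smallest P in limma was 0.104, for Sst, and all 8 adjusted P were 0.999, where 0.00555% of gene totals had one under 0.1. The groups overlapped at all 8 genes, against 1.98% of all gene totals at which they did not. Of the 8 log2 fold changes 4 were positive and 4 negative, with a median of 0.03, beside 0.05 over all gene totals. At the level of sites, 0 of 11 had P under 0.01 in limma, where the share over all 98356 sites was 0.381%. The smallest P of a site was 0.188, again with 0 at P under 0.05 (3.03% of all sites) and 0 in edgeR and DESeq2, and no site separated the groups, as 2% of all sites did.

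**Figure D2:**
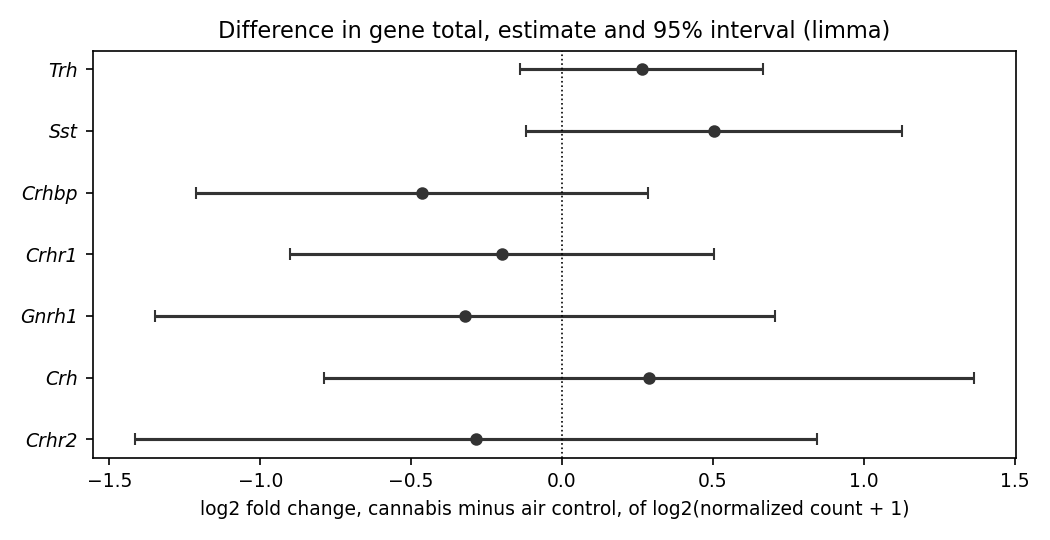
Log2 fold change of the gene total, cannabis minus air control, on the log2(normalized count + 1) scale, with the 95% interval from limma, for 7 genes in order of level. Ghrh is not shown because it had under 3 reads in 7 of 8 libraries. Every interval includes 0, and the intervals widen from Trh (-0.14 to 0.67) to Crhr2 (-1.42 to 0.84).

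Trh encodes the precursor of thyrotropin-releasing hormone, which holds several copies of the tripeptide. Its gene totals were 592, 585, 443 and 619.6 normalized counts in air control replicates 1 to 4, and 692, 638, 743 and 604 in cannabis replicates 1, 2, 3 and 5. In 3 of 4 cannabis rats Trh was above every control, and cannabis replicate 5 lay below air control replicate 4 only. The means were 560.1 ± 79.4 (SD, n = 4) in air controls and 669 ± 60.8 (SD, n = 4) in cannabis rats. The log2 fold change of Trh was 0.26 (95% interval -0.14 to 0.67, P = 0.180 in limma, P = 0.0571 by the two-sided exact permutation test). The exact P was 0.0571 where 0.0286 is the smallest that 4 against 4 rats allow, and it was 0.457 after Benjamini-Hochberg adjustment over the 8 genes. A difference of at least 0.56 on the log2 scale would have been needed for P under 0.01 in limma. Avp and Oxt, which carry the paraventricular and supraoptic marker sum, also had higher means in cannabis rats. Both had P under 0.01 in limma, with adjusted P of 0.999, and the groups overlapped at Oxt. Sim1 and Otp of the same list did not pass. The part of these marker genes in the Trh values was not tested.

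As a share of all reads on sites, given as RPM (reads per 1000000 reads), Trh ran from 194 RPM in air control replicate 3 (95% Wilson interval 179.9 to 209.5) to 330.2 RPM in cannabis replicate 3 (307 to 355). The interval of air control replicate 3 lay below those of the other 7 libraries. Intervals of this kind cover counting error only, and not differences between rats. Reads from PCR are not independent molecules, so the intervals may be too narrow even for counting error. Over the 8 libraries the variance of the Trh reads was 15.8 times that of counting alone at a constant level. Between pairs of libraries of the same group, the mean squared difference over the well-read sites of all genes was 6.61 to 19.2 times that of counting. These are unlike measures, since the value of Trh includes any difference between the groups and its read number is its own. Within groups the SD of Trh was 0.18 on the log2 scale, and among the 532 gene totals within 1.5-fold of its level the median was 0.34, with Trh at the 13.3 percentile.

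**Figure D3:**
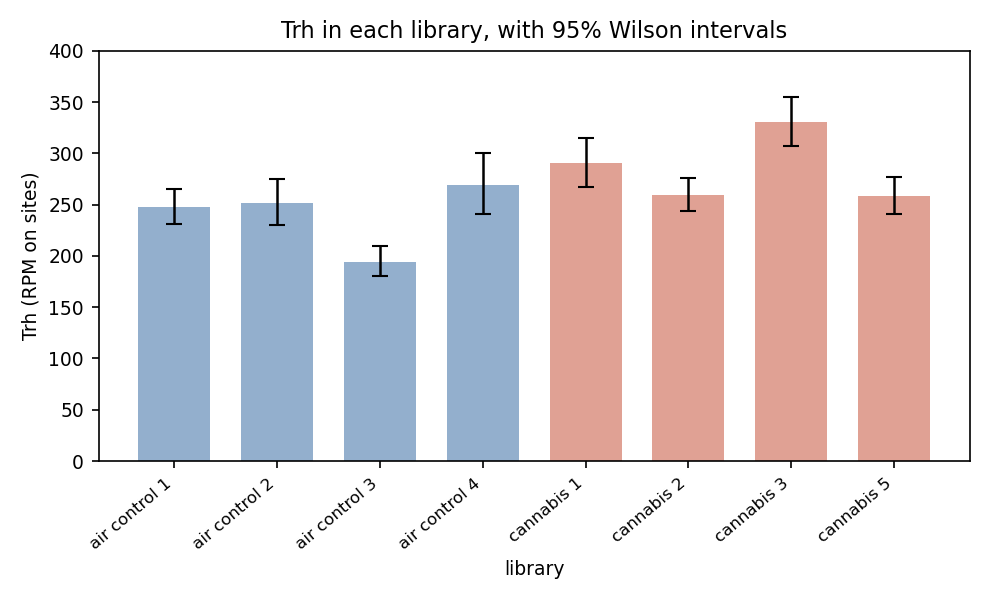
Trh RPM (reads per 1000000 reads on sites) in each library (bars, from 0), with 95% Wilson intervals that cover counting error only. Air control replicate 3 is lowest at 194 and cannabis replicate 3 highest at 330.2 RPM, and the other air controls (248 to 269) overlap the range of the other cannabis rats (258 to 290.1).

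Trh transcripts ended almost entirely at 1 of 2 sites. The main site lies on the minus strand of chromosome 4, from 124110690 to 124110734 in Rnor_6.0, a position taken from the site table of the study after a match of symbol and values. It held 99.4% ± 0.455 of the Trh reads in air controls and 99.2% ± 1.29 in cannabis rats (SD, n = 4), a difference of -0.129 percentage points (exact permutation test, two-sided, P = 0.971, and 0.971 adjusted over the 2 genes with enough reads). The second site had 2, 2, 4 and 4 reads in air control replicates 1 to 4. In cannabis replicates 1, 2, 3 and 5 it had 15, 1, 2 and 0 reads, so that cannabis replicate 1 alone stood above the rest, at 2.69% of its Trh reads (95% Wilson interval 1.64 to 4.40). With 787 Trh reads, the count of 0 in cannabis replicate 5 allows a share of up to 0.381% by the limit of 3 reads, and the upper end of its 95% Wilson interval was 0.486%. Without cannabis replicate 1 the difference in the share of the main site was 0.513 points.

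**Figure D4:**
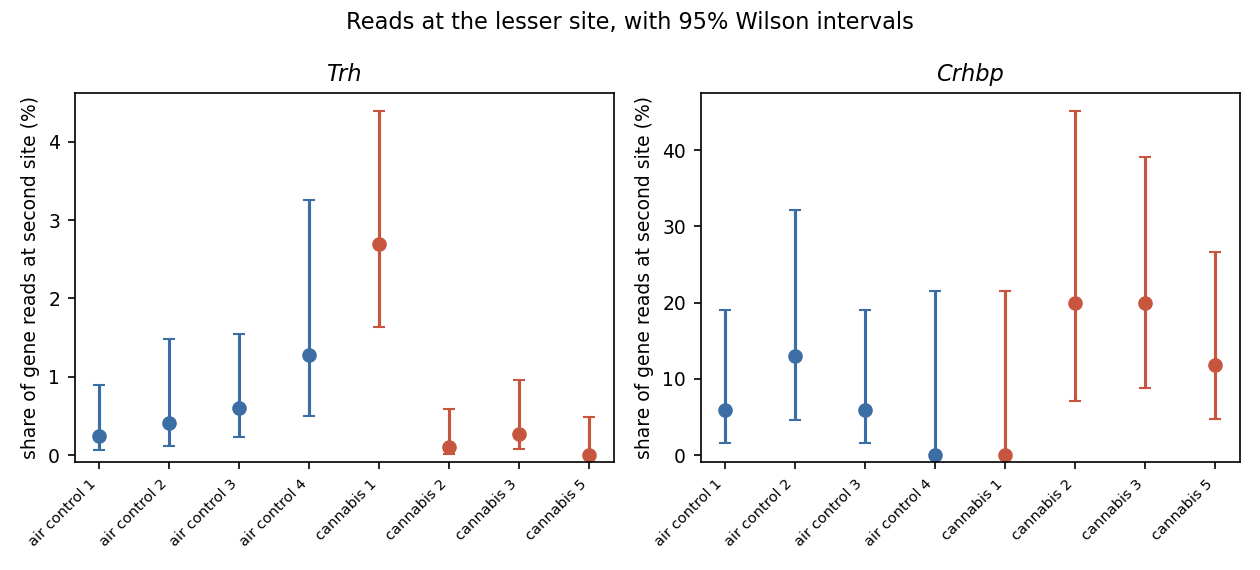
Share of the reads of Trh (left) and Crhbp (right) at the lesser of 2 sites in each library, in percent with 95% Wilson intervals. The Trh share is highest in cannabis replicate 1, at 2.69%, and at most 1.28% elsewhere, and the Crhbp intervals are wide because each library had from 14 to 34 Crhbp reads.

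Sst encodes somatostatin, which inhibits the release of growth hormone and thyrotropin and is also a transmitter of many neurons that do not project to the median eminence. It had 1 site. Air control replicates 1 to 4 had 32.2, 43.1, 53.0 and 25.8 normalized counts, and cannabis replicates 1, 2, 3 and 5 had 53.4, 64.4, 41.3 and 56.1. Again 3 of 4 cannabis rats were above every control, and cannabis replicate 3 lay within the range of the controls. Cannabis replicate 1 (53.4) was only just above air control replicate 3 (53.0). In cannabis replicate 1 a single read was worth 1.24 normalized counts. The means were 38.5 ± 12.0 (SD, n = 4) and 53.8 ± 9.56 (SD, n = 4). The log2 fold change of Sst was 0.51 (95% interval -0.12 to 1.13, P = 0.104 in limma), the largest of the 8, and the exact permutation test gave P = 0.114 (two-sided), or 0.457 adjusted over the 8 genes. Sst had from 13 reads in air control replicate 4 to 97 in cannabis replicate 2, and the variance of these reads was 3.57 times that of counting alone.

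Ghrh encodes growth hormone-releasing hormone. Its only site had 2, 2, 2 and 1 reads in air control replicates 1 to 4 and 2, 2, 1 and 9 in cannabis replicates 1, 2, 3 and 5, a total of 21. All libraries except cannabis replicate 5 thus lay under 3 reads, the number taken here as the floor, and a difference of at least 1.73 on the log2 scale would have been needed for P under 0.01 in limma. The ratio of Sst to Ghrh within a library, on the log2 scale with 1 normalized count added to each, was 3.79 ± 0.560 (SD, n = 4) in air controls and 4.01 ± 0.847 (SD, n = 4) in cannabis rats. The difference of 0.22 was smaller than the spread in either group (exact permutation test, two-sided, P = 0.686, and 0.686 adjusted over 2 ratios), and the ratio rests on the few Ghrh reads. Without cannabis replicate 2 this difference was -0.04.

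Crh encodes corticotropin-releasing hormone, the main driver of the pituitary response to stress. Its gene totals were 5.12, 4.79, 1.34 and 5.96 normalized counts in air control replicates 1 to 4, and 3.73, 5.98, 3.94 and 6.91 in cannabis replicates 1, 2, 3 and 5. These are from 2 to 9 reads per library, 41 in all, and the controls lay among the cannabis rats except for air control replicate 3, the lowest. The log2 fold change of Crh was 0.29 (95% interval -0.79 to 1.37, P = 0.572 in limma, P = 0.629 by the two-sided exact permutation test), and it was -0.07 without air control replicate 3. Crh reads fell on 2 sites, of which the first had 3, 2, 2 and 0 reads in air controls and 3, 7, 2 and 3 in cannabis rats. The second had 4, 2, 0 and 3 reads in air controls and 0, 2, 2 and 6 in cannabis rats. Neither Crh site had reads in every library, and the order of the sites differed between libraries of both groups. The variance of the Crh reads over libraries was 0.861 times that of counting alone.

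Crhbp encodes the binding protein that holds Crh away from its receptors. Air control replicates 1 to 4 had 24.9, 27.5, 22.8 and 27.8 normalized counts, and cannabis replicates 1, 2, 3 and 5 had 17.4, 9.96, 24.6 and 26.1. The controls lay close together, while cannabis replicates 1 and 2 were below all of them and cannabis replicates 3 and 5 within their range. The means were 25.8 ± 2.36 (SD, n = 4) and 19.5 ± 7.42 (SD, n = 4), with a log2 fold change of -0.46 (95% interval -1.21 to 0.28, P = 0.204 in limma, P = 0.200 by the two-sided exact permutation test). The main of its 2 sites held 93.8% ± 5.34 of Crhbp reads in air controls and 87.1% ± 9.46 in cannabis rats (SD, n = 4). This difference of -6.74 percentage points did not pass the exact permutation test (two-sided, P = 0.286, adjusted P = 0.571 over 2 genes), and the second site never had more than 5 reads. By its level, the main site was below every control (21.5 to 27.8) in cannabis replicates 1, 2 and 3 (17.4, 7.97 and 19.7). Cannabis replicate 5, at 23.0, lay within their range. The log2 fold change of this site was -0.57 (95% interval -1.48 to 0.35, P = 0.214 in limma, unadjusted P = 0.0571 by the two-sided exact permutation test). The ratio of Crh to Crhbp on the log2 scale was -2.44 ± 0.612 (SD, n = 4) in air controls and -1.69 ± 0.736 (SD, n = 4) in cannabis rats, a difference of 0.75 (exact permutation test, two-sided, P = 0.171, and 0.343 adjusted over 2 ratios).

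Crhr1, the receptor through which Crh acts on the pituitary and in much of the brain, had 24.9, 19.2, 18.1 and 13.9 normalized counts in air control replicates 1 to 4. It had 19.9, 15.9, 13.8 and 15.4 in cannabis replicates 1, 2, 3 and 5, nearly all within the range of the controls. The log2 fold change of Crhr1 was -0.20 (95% interval -0.90 to 0.50, P = 0.551 in limma, P = 0.371 by the two-sided exact permutation test). Crhr1 was also among the steadiest genes of its level, with an SD within groups of 0.27 on the log2 scale against a median of 0.57 for the 2982 gene totals within 1.5-fold, at the 4.63 percentile. Its read variance was 0.879 times that of counting alone.

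Crhr2, the receptor that prefers the urocortins, had from 1 to 10 reads per library. Its levels were 3.66, 12.0, 4.03 and 1.99 normalized counts in air control replicates 1 to 4, and 3.73, 3.32, 3.94 and 3.07 in cannabis replicates 1, 2, 3 and 5. Air control replicate 2 was the highest of all, and the cannabis rats lay within the range of the other controls. The log2 fold change of Crhr2 was -0.29 (95% interval -1.42 to 0.84, P = 0.595 in limma, P = 0.657 by the two-sided exact permutation test), and without air control replicate 2 it was 0.13. Crhr1 exceeded Crhr2 in every library, by 1.60-fold in air control replicate 2 and by more elsewhere, with a median of 4.90-fold and 158 against 38 reads in all.

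Gnrh1 encodes gonadotropin-releasing hormone. It had 11, 4, 13 and 2 reads in air control replicates 1 to 4, or 8.04, 4.79, 8.73 and 3.97 normalized counts. In cannabis replicates 1, 2, 3 and 5 it had 5, 12, 3 and 4 reads, or 6.21, 7.97, 2.95 and 3.07 normalized counts. The groups overlapped, with cannabis replicates 3 and 5 below every control. Gnrh1 had a log2 fold change of -0.32 (95% interval -1.35 to 0.71, P = 0.513 in limma, P = 0.400 by the two-sided exact permutation test), and its read variance was 1.08 times that of counting alone.

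Other genes of the same pathways were described from 5 lists with 31 genes in all, of which 22 were analysed here. In limma 1 of 22 had P under 0.01, Avp, where the share over all gene totals was 0.278%, and the other 21 did not pass, with a median log2 fold change of 0.17 over the 22, beside 0.05 over all gene totals. Among the other ligands, Avp, the vasopressin gene whose product acts with Crh on corticotropin release, had 3082, 1178, 1054 and 2494 normalized counts in air control replicates 1 to 4 and 5799, 3278, 4343 and 6314 in cannabis replicates 1, 2, 3 and 5. Every cannabis rat was above every control, a separation seen in either direction at 1.98% of all gene totals, and the log2 fold change of Avp was 1.44 (95% interval 0.71 to 2.18, P = 0.000924 and adjusted P = 0.999 in limma, P = 0.0286 by the two-sided exact permutation test). Ucn3, the other analysed gene of this list, had under 3 reads in 6 of 8 libraries.

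**Figure D5:**
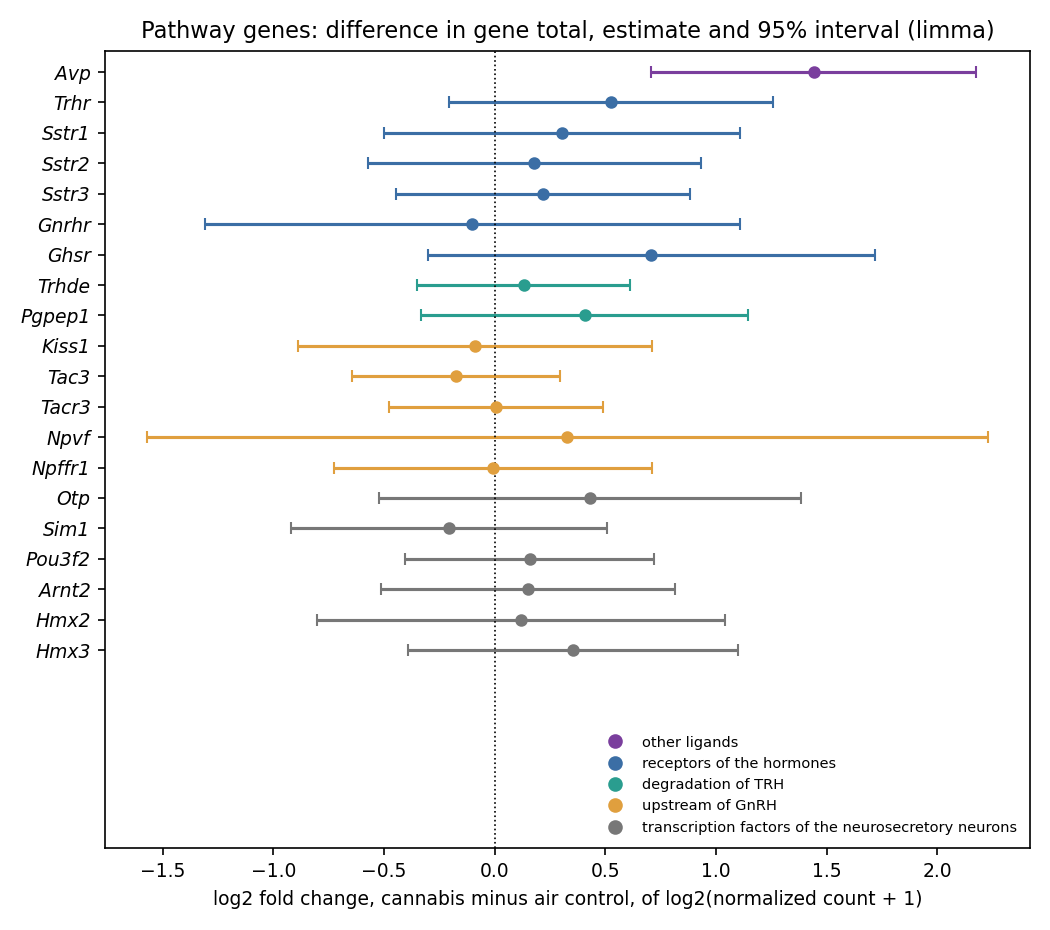
Log2 fold change of the gene total, cannabis minus air control, on the log2(normalized count + 1) scale, with the 95% interval from limma, for 20 genes coloured by list. Ucn3 and Sstr5 are not shown because they had under 3 reads in 6 and 5 of 8 libraries. The interval of Avp (0.71 to 2.18) lies above 0 and the other 19 include 0.

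Of the receptors, 7 of 11 were analysed and 0 passed at P under 0.01, where the share over all gene totals was 0.278%. In lists as short as this and those below, a count of 0 is near that share. Trhr, the Trh receptor and the most abundant of them, had 26.3, 44.3, 49.7 and 17.9 normalized counts in air control replicates 1 to 4 and 42.2, 62.4, 44.3 and 39.9 in cannabis replicates 1, 2, 3 and 5. The groups overlapped, and the log2 fold change of Trhr was 0.53 (95% interval -0.21 to 1.26, P = 0.146 in limma, P = 0.286 by the two-sided exact permutation test). The somatostatin receptors Sstr1, Sstr2 and Sstr3 had log2 fold changes of 0.30, 0.18 and 0.22. For the breakdown of TRH, the ectoenzyme gene Trhde was measured with more precision, at 146 ± 36.7 (SD, n = 4) in air controls and 156 ± 9.09 (SD, n = 4) in cannabis rats, a log2 fold change of 0.13 (95% interval -0.35 to 0.61). Upstream of GnRH, 5 of 6 genes were analysed and 0 passed, with Tac3, the neurokinin B gene, at 147 ± 23.8 and 131 ± 23.0 normalized counts (SD, n = 4) and a log2 fold change of -0.17. Of the transcription factors of these neurons, 6 of 7 were analysed and 0 passed, and Sim1 had the highest level, with 98.1 ± 59.7 in air controls and 76.7 ± 12.8 in cannabis rats (SD, n = 4). Its control mean rested on air control replicate 4, at 187, where the other controls had from 56.4 to 75.3.

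Trh, Sst and Crhbp had enough reads to set their patterns over the 8 libraries side by side. As a description, Pearson's r of log2(normalized count + 1) was -0.09 between Trh and Sst, -0.18 between Trh and Crhbp and -0.64 between Sst and Crhbp. Among the 9626 gene totals with a mean of at least 20 normalized counts, those most like Trh were Braf (r = 0.91) and Rit2 (r = 0.91). Sst was most like Inafm2 (r = 0.98) and Msmo1 (r = 0.98), and Crhbp most like Dgkq (r = 0.95) and Ttc4 (r = 0.93). These values rest on 8 libraries that share their depth and size factors across genes, and each pair is the highest of 9626 values of r.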

How the data were processed

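The authors quality-filtered the reads, removed the Ts at their start and aligned them by TMAP against Rnor_6.0. Read ends up to 24 nt apart became 1 site, a minimum of 16 reads was required, and Cuffcompare gave gene symbols. The deposited signal is a normalized count for each site (reads over a size factor from DESeq2), with a file for each rat. A position was matched only for the main Trh site, so whether the other sites are exonic, intronic or antisense is not known here. Sites without a gene symbol (34043, with 13.9% of reads) have no position here, so reads of these genes beyond annotated ends would be missed.

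The files were joined by row order. Every value was a whole multiple of 1 read (100% within 0.01 reads), and reads were recovered from these steps. Depth was from 1159811 to 3706778 reads per library, and no replicates had identical values or agreed within counting error. Gene totals and sites were tested in limma 3.58.1 (R 4.3.3, lmFit and eBayes with a trend) on log2(normalized count + 1), over all rows. This scale understates changes of low genes. Thresholds of 0.01 for P, as in the study, and 0.1 for adjusted P were used, and the scripts were tested on simulated data. Single values had an exact permutation test (scipy 1.17.1). edgeR 4.0.16 and DESeq2 1.42.0 ran on the recovered reads as alternatives. Other alternatives were pseudocounts, a mean filter, equal totals, no trend, the replicate number as a block and each library left out.

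The genes, lists and tests were chosen with earlier results of these data known. Named were all 8 genes and their sites, the genes of each list with P under 0.01 or groups that did not overlap, the gene with the highest level in each list, and the 2 most like each gene with a mean of at least 20. Sstr1, Sstr2, Sstr3, Sstr5, Ucn3, Cartpt, Cga and Tshb were named after their values were seen. Of the lists, Ucn, Ucn2, Cort, Trhr2, Sstr4, Ghrhr, Avpr1b, Kiss1r and Gsx1 and the markers Npy, Gh1, Prl, Slc17a7, Neurod6, Adora2a and Sostdc1 were not analysed here. The RefSeq gene table held all 8 symbols but on another build, so its coordinates were not used.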

Additional observations from a re-analysis of the deposited data

Results flagged for a closer look

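Of 36 sets of 4 libraries examined (gene totals, sites, shares and ratios of the 8 genes), 3 held a library far from the other 3, and chance gives about 1 in 20. All were in Trh. At the main Trh site air control replicate 3 had 440.4 normalized counts, and the other air controls had from 583 to 612. At the second Trh site cannabis replicate 1 had 18.6 normalized counts, from 15 reads, and the other cannabis rats had from 0 to 1.97. As a share of Trh reads the same library had 2.69% at this site and the other cannabis rats from 0 to 0.265%, from the same 15 reads.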

How the results depend on the processing

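The count of the 8 gene totals and of the 11 sites with P under 0.01 was 0 under every alternative run. With a mean of at least 10, only 4 of these gene totals and 4 of these sites were tested. At P under 0.05 the count was also 0, except that Sst passed (0.0495 in limma) without air control replicate 3. Of 124 fold changes of gene totals under alternatives, 120 kept their direction and side of the threshold and 4 reversed. In edgeR and DESeq2 the log2 fold change was -0.67 and -0.69 for Crhr2, against -0.29 in limma. For Ghrh it was 0.72 and 0.73, against 0.28. These values lie outside the ranges of both genes with libraries left out. With libraries left out in turn, Crh ran from -0.066 (without air control replicate 3) to 0.46, Crhr2 from -0.58 to 0.13 (without air control replicate 2) and Ghrh from -0.13 (without cannabis replicate 5) to 0.53, the last from a value of 0.28 that rests on 9 reads in 1 library. The difference in the share of the main Trh site ran from -0.385 to 0.513 points, positive without cannabis replicate 1 or air control replicate 1, and the log2 ratio of Sst to Ghrh from -0.043 (without cannabis replicate 2) to 0.61. Without losing their direction, Trh ran from 0.16 (without air control replicate 3) to 0.32, Sst from 0.34 (without air control replicate 4) to 0.67, Crhbp from -0.63 to -0.19 (without cannabis replicate 2), Crhr1 from -0.33 (without air control replicate 4) to -0.07 (without air control replicate 1) and Gnrh1 from -0.54 (without cannabis replicate 2) to -0.15 (without cannabis replicate 3). The share of the main Crhbp site ran from -11.1 points (without cannabis replicate 1) to -4.39 (without cannabis replicate 2 or 3), and the log2 ratio of Crh to Crhbp from 0.41 (without cannabis replicate 2) to 0.98. With 3 against 4 rats an exact test cannot go below 0.0571. Adding a replicate block gave 0.36 for Trh, 0.31 for Sst and -0.094 for Ghrh, and 24 instead of 50 of all gene totals had P under 0.01. Air control replicate 4 and cannabis replicate 5 share their number with no other library. The blocked differences therefore rest on replicates 1, 2 and 3, and are not an effect of pairing alone. Deviations of same-numbered libraries had correlations of -0.23, 0.07 and -0.03, and those of libraries with unlike numbers ran from -0.33 to 0.45. The labels do not say whether the numbers pair rats, and so few values with such a spread cannot decide it. Over all gene totals, the count was 98 without trend, 76 in DESeq2 and from 30 to 90 with a library left out. With a mean of at least 10 it was 29, of only 12114 gene totals tested. Over all sites the count was 229 with the block and from 227 to 617 with a library left out, in place of 375. With that mean it was 44, of only 22164 sites tested. The pathway lists gave 1 gene, Avp, with the block, a mean of at least 10 (17 of the 22 genes), equal totals, edgeR and DESeq2. They were not counted under the other alternatives, such as with a library left out. Depth limits most of these genes, since a log2 difference of at least 1.43 at Gnrh1 or 1.73 at Ghrh was needed for P under 0.01 in limma, against 0.87 at Sst and 0.56 at Trh.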

Other observations

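Transcripts of pituitary hormone subunits were present in the dissected tissue at levels that varied widely among rats of both groups. Cga, the common alpha subunit of the glycoprotein hormones, had 346, 688, 101 and 381 normalized counts in air control replicates 1 to 4 and 196, 450.4, 182 and 619 in cannabis replicates 1, 2, 3 and 5. Tshb, the beta subunit of thyrotropin, had 70.2, 122, 11.4 and 19.9 in air controls and 54.6, 92.3, 2.95 and 69.9 in cannabis rats. For Cga the log2 fold change was 0.03 and for Tshb -0.16, and the groups overlapped at both genes.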
